A study of Mus musculus with 8 samples.

Results

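Pou4f3, Neurod1, Mesp2, Nectin4, Plekhg6 and C4a are lineage, adhesion and immune genes that were chosen by their level in pluripotent mouse cells, about 2-fold higher in late G1 than in early G1 libraries, so that this difference describes the choice and is no finding. They are 6 of the 54838 genes in a table of raw read counts and were matched to it by Ensembl ID. All 6 had enough counts to enter the tests, as 19101 genes did. The cells were male induced pluripotent stem cells, named ESC in the sample titles, of 2 independent clones used as replicates. The cells of all 4 states were grown on irradiated feeder cells with LIF at 1000 U/ml, 15% serum, a MEK inhibitor at 1 uM and a GSK3 inhibitor at 3 uM. Mitotic cells had been arrested with nocodazole, a microtubule poison, at 200 ng/ml for 6 h on gelatin and shaken off. Early G1 cells (EG1) and late G1 cells (LG1) were mitotic cells released into medium without the drug and replated on gelatin, taken here as the collections at 1 h and 3 h. Asynchronous cells had no arrest and no release. Each state had n = 2 libraries, with total counts from 20410621 to 25615244. Which of the clones a replicate number stands for is not stated in the labels, so p-values measure the spread between these samples.

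Pou4f3, Neurod1 and Mesp2 encode DNA-binding transcription factors that act in committed cells: POU4F3 in hair cells of the inner ear, NEUROD1 in neurons and hormone-secreting cells of pancreas and gut, and MESP2 in the mesoderm that forms somites. Nectin4 encodes an adhesion molecule of epithelial junctions, Plekhg6 an exchange factor that loads small GTPases, and C4a a copy of complement component C4, the thioester protein that marks surfaces in innate immunity. Pluripotent cells keep such lineage genes at low levels, and in the first hours after mitosis transcription restarts while chromatin and nuclear envelope are rebuilt.

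The label of the cells held in the markers. All 12 stem cell markers had counts in every library, and their summed level ran from 5880 to 7560 CPM, the unit of every level given (counts scaled to library size after TMM normalisation). Markers of feeder fibroblasts summed to 72.4 and 83.2 CPM in mitotic cells, 123 and 116 CPM in early G1 and 75.7 and 59.8 CPM in late G1, against 1680 and 1700 CPM in asynchronous cells. Of 18 such markers tested, 1 rose and 16 fell in mitotic against asynchronous cells (edgeR, adjusted p under 0.05), and 1 to 3 of all 20 were at 0 in each synchronised library, against 0 in asynchronous ones. The part of the feeder cells, and of the passage to gelatin, in any difference from asynchronous cells was not tested. The 14 macrophage markers summed to 337 and 349 CPM in mitotic cells, 264 to 290 CPM in the 4 G1 libraries and 250 and 317 CPM in asynchronous cells, of which Laptm5, Cd68 and Cd74 made up most. The other 11, a split made after the values were seen, summed to 54.2 and 53.6 CPM in mitotic cells, 3.98 to 7.08 CPM in G1 and 19.5 and 26.1 CPM in asynchronous cells, with Lyz2 at 28.7 to 30.8 CPM in mitotic cells and at 0 in both late G1 libraries. In these bulk samples, fewer cells that express a gene and less RNA per cell cannot be told apart. The 2 asynchronous libraries, and to a lesser degree the 2 mitotic ones, stood further from each other than the G1 pairs did: the biological coefficient of variation was 0.183 in mitotic cells, 0.0506 in early G1, 0.0417 in late G1 and 0.291 in asynchronous cells.

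**Figure D1:**
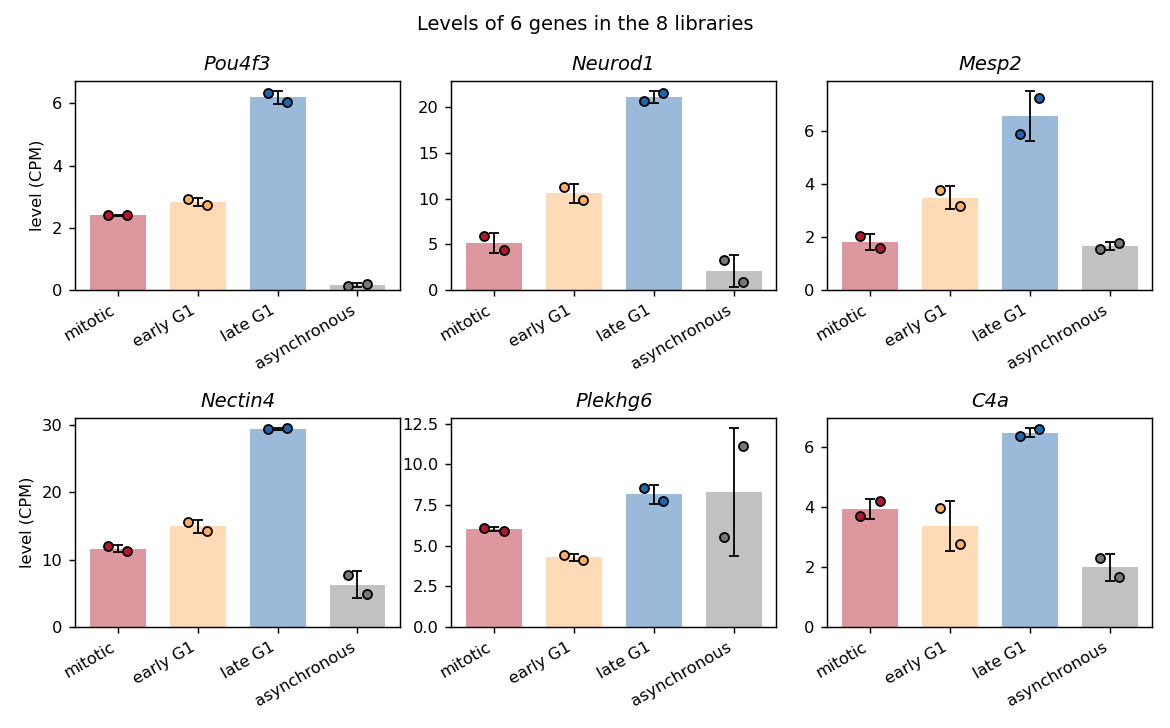
Level in CPM (y axis, linear from 0) of each of the 6 genes in mitotic, early G1, late G1 and asynchronous cells. Points are the 2 libraries of each state, bars their mean and error bars the SD. Both late G1 libraries lie above every other library for 5 genes. For Plekhg6 an asynchronous library at 11.1 CPM lies higher.

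Pou4f3 (ENSMUSG00000024497, on chromosome 18) was close to undetected in asynchronous cells and present in every synchronised library. Its level was 2.40 and 2.42 CPM in mitotic cells, 2.93 and 2.74 CPM in early G1, 6.34 and 6.05 CPM in late G1, and 0.119 and 0.203 CPM in asynchronous cells. The 4 states did not overlap and stood in the order asynchronous, mitotic, early G1, late G1, the middle pair being close (1.18-fold). The asynchronous values rest on 3 and 4 reads, near the floor of 3 counts, whereas the mitotic libraries held 57 and 56. From mitotic over asynchronous counts the ratio was 15.4, with an exact 95% interval of 7.25 to 39.3 that covers counting error only and takes each read for a separate molecule, which no molecular identifier shows. In the fit across all genes Pou4f3 rose 14.9-fold in mitotic against asynchronous cells (log2 3.89, SE 0.34, edgeR quasi-likelihood adjusted p = 0.000177, higher in 2 of 2 libraries). Among the 6 genes this was the largest difference between those states. The call was kept under every other setting with all 8 libraries and in the fit of those states alone (edgeR adjusted p = 0.0055). Over all 15 alternatives the log2 change ran from 3.54 to 4.27.

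Neurod1 (ENSMUSG00000034701, chromosome 2, 79452521 to 79456751, minus strand, GRCm38) was higher at each step after mitosis, by about equal ratios. It stood at 5.90 and 4.36 CPM in mitotic cells, 11.3 and 9.85 CPM in early G1 and 20.7 and 21.6 CPM in late G1, and at 3.34 and 0.862 CPM in asynchronous cells. None of the states overlapped, and the ratio of means was 2.06 for early G1 over mitotic cells and 2.00 for late over early G1. The asynchronous libraries differed 3.88-fold from each other. Mitotic against asynchronous cells gave log2 1.25 (SE 0.46), which was not called (edgeR adjusted p = 0.0614). It was called with the replicate number as a block (log2 1.31, edgeR adjusted p = 0.0308), by DESeq2 (adjusted p = 0.00856), with no filter on low counts (edgeR adjusted p = 4.48e-05) and without asynchronous replicate 1 (log2 2.57, edgeR adjusted p = 0.000147). In the fit of those states alone Neurod1 was not called (edgeR adjusted p = 0.145). Over all 15 alternatives its log2 change ran from 0.62 to 2.57. Of its exon bases 201, or 7.4%, overlap those of Cerkl on the same strand, a gene with 6 to 15 reads in each library, and 5.6% those of the antisense gene Gm26755, with 0 to 2 reads. Of all windows of 50 bases in Neurod1, 9.7% also occur in transcripts of other genes.

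Mesp2 (ENSMUSG00000030543, chromosome 7, 79810727 to 79813439, plus strand) was also higher at each step, with mitotic and asynchronous cells at overlapping low levels. Its level was 2.02 and 1.60 CPM in mitotic cells, 3.78 and 3.17 CPM in early G1, 5.88 and 7.22 CPM in late G1, and 1.55 and 1.77 CPM in asynchronous cells. Mitotic and asynchronous libraries overlapped, while early and late G1 each lay clear of the rest. Mitotic against asynchronous cells gave log2 0.13 (SE 0.27, edgeR adjusted p = 0.728), and the sign turned to -0.04 without mitotic replicate 1. Early G1 over mitotic cells was 1.92-fold, close to the 1.89-fold of late over early G1.

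Sequence before the transcription start is shown for the genes that have an entry in the RefSeq promoter table (build GRCm38.p6). These are 3 of the 6, Neurod1, Mesp2 and Nectin4, and they are shown because 2 of them encode factors that bind a short word which can be looked for in all 3. Windows of 250 bases before the RefSeq start were searched. The last 115 bases of the Neurod1 window and the last 74 of the Nectin4 window lie inside the gene as GENCODE M21 draws it, so each line holds the bases upstream of both starts, 135 for Neurod1, 250 for Mesp2 and 176 for Nectin4. They run 5′ to 3′ on the gene's strand, and capitals mark matches to CANNTG, the E-box, the word that basic helix-loop-helix factors such as NEUROD1 and MESP2 bind. The printed stretches are chr2:79456752-79456886 on the minus strand, chr7:79810477-79810726 on the plus strand and chr1:171369923-171370098 on the plus strand.
Neurod1: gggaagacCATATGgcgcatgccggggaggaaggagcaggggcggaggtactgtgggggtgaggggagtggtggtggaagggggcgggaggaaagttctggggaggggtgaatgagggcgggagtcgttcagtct
Mesp2: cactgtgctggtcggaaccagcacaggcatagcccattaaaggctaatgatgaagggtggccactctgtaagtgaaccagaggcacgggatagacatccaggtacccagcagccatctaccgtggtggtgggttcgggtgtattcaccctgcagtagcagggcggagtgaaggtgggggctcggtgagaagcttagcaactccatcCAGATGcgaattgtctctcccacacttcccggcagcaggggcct
Nectin4: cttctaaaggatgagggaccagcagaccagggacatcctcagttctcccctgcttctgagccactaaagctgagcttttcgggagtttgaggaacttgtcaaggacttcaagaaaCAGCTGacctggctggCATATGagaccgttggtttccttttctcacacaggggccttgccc
The Neurod1 window of 250 bases held 1 E-box, the Mesp2 window 1 and the Nectin4 window 2, all within the printed stretches. At least 1 was found in 66.2% of all 32851 promoter windows of that length, and at least 2 in 31.8%. The GC box GGGCGG, searched on both strands, occurred 4 times in the Neurod1 window (3 in the printed stretch), 1 time in that of Mesp2 and not in that of Nectin4, against at least 1 match in 32.7% of windows. CCAAT and TATAAA, searched on both strands, occurred in none of the 3 windows, against 33.8% and 12.4% of all windows. No E-box match overlapped a GC box match. A match is a word in the sequence and not a shown site. The share of G and C over the 250 bases was 67.6% for Neurod1, 57.6% for Mesp2 and 54.4% for Nectin4.

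Nectin4 (ENSMUSG00000006411, chromosome 1, 171370099 to 171388598, plus strand) had the most reads of the 6 genes over all libraries and the tightest late G1 pair. It stood at 12 and 11.3 CPM in mitotic cells, 15.6 and 14.3 CPM in early G1 and 29.4 and 29.6 CPM in late G1, and at 7.72 and 4.87 CPM in asynchronous cells. All 4 states were separate, in the order asynchronous, mitotic, early G1, late G1. Nectin4 rose 1.84-fold in mitotic against asynchronous cells (log2 0.88, SE 0.22, edgeR adjusted p = 0.0138, higher in 2 of 2 libraries). Without mitotic replicate 1 the call was lost (edgeR adjusted p = 0.0656), as it was in the fit of those states alone (edgeR adjusted p = 0.0750). Levels of the other nectin genes were read beside it. Nectin1 averaged 29.0 ± 4.29 CPM in late G1 and 28.9 ± 1.41 CPM in early G1, Nectin2 89.5 ± 4.92 and 103 ± 1.30 CPM, and Nectin3 40.7 ± 3.17 and 39.2 ± 2.90 CPM in the same order (SD, n = 2 each).

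Plekhg6 (ENSMUSG00000038167, chromosome 6, 125362660 to 125380793, minus strand) was lowest in early G1. Its level was 6.11 and 5.91 CPM in mitotic cells, 4.44 and 4.13 CPM in early G1, 8.57 and 7.74 CPM in late G1, and 5.53 and 11.1 CPM in asynchronous cells. The 3 synchronised states did not overlap, and late G1 was highest. The asynchronous libraries lay on either side of the mitotic and late G1 values, so they gave no order. Mitotic against asynchronous cells gave log2 -0.46 (SE 0.30), which was not called (edgeR adjusted p = 0.252). That value was 0.12 without asynchronous replicate 2 and -0.88 without asynchronous replicate 1, where it passed the test (edgeR adjusted p = 0.00395). Late G1 stood at 0.981 times the asynchronous mean, whereas the other 5 genes stood at 3.26 to 38.4 times theirs. Plekhg5, an exchange factor gene of the same family, averaged 27.2 ± 3.19 CPM in late G1 and 34.3 ± 0.999 CPM in early G1 (SD, n = 2 each).

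C4a (ENSMUSG00000015451, chromosome 17, 34809092 to 34823464, minus strand) is annotated as a processed transcript in GENCODE M21, and C4b, its protein-coding copy, lies at 34728380 to 34743882 on the same chromosome and strand. C4a stood at 3.71 and 4.19 CPM in mitotic cells, 3.97 and 2.78 CPM in early G1 and 6.38 and 6.61 CPM in late G1, and at 2.31 and 1.67 CPM in asynchronous cells. Mitotic and early G1 libraries overlapped, late G1 lay above both and asynchronous cells below. C4a rose 1.97-fold in mitotic against asynchronous cells (log2 0.98, SE 0.27, edgeR adjusted p = 0.0211, higher in 2 of 2 libraries), and the call was lost without either mitotic library or asynchronous replicate 2 (edgeR adjusted p from 0.0552 to 0.0851).

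Reads of C4a and C4b can be confused: of the 5322 windows of 50 bases (the read length) in the longest C4a transcript, 1875, or 35.2%, also occur in C4b transcripts. Levels of either copy are therefore uncertain. C4b stood at 2.74 and 1.88 CPM in late G1 and at 2.08 and 2.20 CPM in early G1, and these libraries overlapped. The 2 genes together came to 9.12 and 8.49 CPM in late G1 and to 6.05 and 4.98 CPM in early G1. This sum does not depend on how kept reads were split between the copies. C4a, which was picked for this difference, made up most of it. The higher sum in late G1 therefore describes the choice and is no separate finding. C4a made up 70.0% of the joint counts in late G1 replicate 1 (exact Clopper-Pearson 95% interval 63.1 to 76.3) and 77.9% in replicate 2 (71.1 to 83.7). In early G1 its share was 65.6% (56.7 to 73.8) and 55.8% (46.8 to 64.5), and in mitotic cells 59.5% (51.1 to 67.4) and 65.1% (56.9 to 72.7). Asynchronous replicate 1 had the highest share, 89.2% (79.1 to 95.6) of 65 reads, against 62.3% (47.9 to 75.2) of 53 reads in replicate 2. These intervals cover counting error only.

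**Figure D2:**
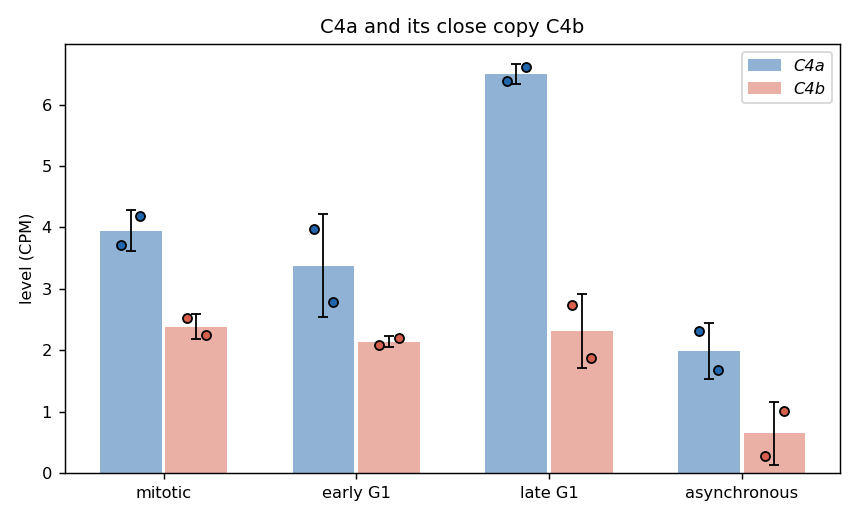
Level in CPM (y axis, linear from 0) of C4a and C4b in the 4 states. Points are the 2 libraries of each state, bars their mean and error bars the SD. C4a stands above 6 CPM in both late G1 libraries, while C4b lies between 1.88 and 2.74 CPM in all 6 synchronised ones.

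Late against early G1 was the difference the genes were picked for, so it is described without a test. The ratio of late to early G1 means was 2.18 for Pou4f3, 2.00 for Neurod1, 1.89 for Mesp2, 1.97 for Nectin4, 1.90 for Plekhg6 and 1.93 for C4a. Over the 4 pairings of a late with an early G1 library, the smallest ratio was 1.56 for Mesp2 and the largest 2.38 for C4a. No fixed threshold set the list. In the fitted log2 change the lowest member was Mesp2 at 0.92, with Plekhg6 next at 0.93, and genes outside the list lay on both sides: Cadm3 at 0.94 and Dynlt1c at 0.93 above it, Krt5 at 0.91 and Prr15l at 0.90 below it. Of the 19101 tested genes 391 had a change at least as large as that of Mesp2, and 36 of these were among the 15295 genes whose mean log2 CPM was 0 or more. Across all genes the test called 0 between late and early G1 (0.0% of 19101, edgeR on 8 libraries, with 724 at an unadjusted p under 0.05), DESeq2 called 26, and edgeR on those 4 libraries alone called 8.44% of 17696, with 619 higher in late G1 (3.5%) and 874 lower (4.94%). Nothing is read from these counts about the 6 genes.

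**Figure D3:**
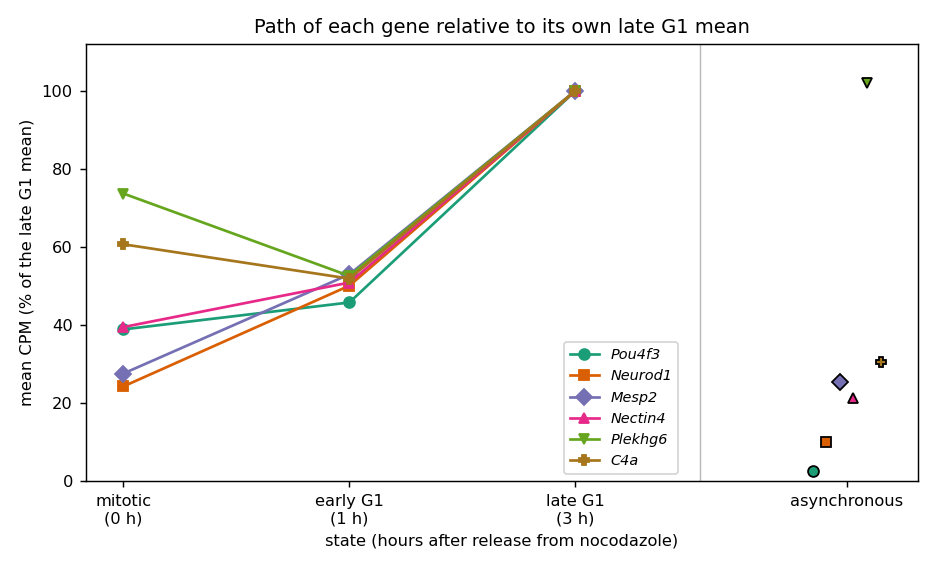
Mean CPM of each gene as a percentage of its own late G1 mean (y axis, linear), over mitotic, early G1 and late G1 cells by hours after release, with asynchronous cells at the right. Early G1 lies between 45.8% and 53.0% for all 6 genes, which is how they were chosen. Mitotic cells spread from 24.3% for Neurod1 to 73.7% for Plekhg6 and asynchronous cells from 2.6% for Pou4f3 to 102% for Plekhg6.

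As shares of the late G1 mean, mitotic levels were 24.3% for Neurod1 and 27.6% for Mesp2, so the means of these 2 transcription factor genes were higher by about equal ratios at both steps. For Pou4f3 and Nectin4 the mitotic share was 38.9% and 39.5%. Their early G1 means were 1.18 and 1.29 times the mitotic ones, against 2.06 for Neurod1 and 1.92 for Mesp2. The step from early to late G1 was fixed by the choice of genes and does not set Pou4f3 and Nectin4 apart. Mitotic levels were 60.7% for C4a and 73.7% for Plekhg6, and their early G1 means lay below the mitotic ones, for C4a with overlapping libraries. Early G1 against mitotic cells gave log2 1.04 (SE 0.43) for Neurod1, 0.94 (SE 0.25) for Mesp2, 0.36 (SE 0.21) for Nectin4, 0.23 (SE 0.23) for Pou4f3, -0.23 (SE 0.26) for C4a and -0.49 (SE 0.31) for Plekhg6. No p is given for these, since the early G1 libraries also entered the choice of genes. Against asynchronous cells, late G1 gave log2 5.25 (SE 0.33) for Pou4f3, 3.29 (SE 0.47) for Neurod1, 2.22 (SE 0.22) for Nectin4, 1.98 (SE 0.25) for Mesp2, 1.70 (SE 0.27) for C4a and -0.02 (SE 0.30) for Plekhg6, again without a test. Of all genes 4.63% were called between early G1 and mitotic cells and 48.7% between late G1 and asynchronous cells. These comparisons share libraries with one another and are not independent.

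The genes were tested in mitotic against asynchronous cells, since neither mean comes from a G1 library. The spread in that fit was estimated from all 8 libraries, the G1 pairs by which the genes were chosen included. In it 3 of 6 were called, Pou4f3, Nectin4 and C4a, all higher in mitotic cells, against 18.3% of 19101 genes called higher and 22.4% called lower. With 6 genes, and 40.7% of the table called in some direction, the count is no result about the list. The count moved with some single libraries left out, and so did the share of all genes called. In the fit of those states alone, which called 21.3% of 18245 genes (8.55% higher, 12.7% lower), Pou4f3 was the 1 gene called, while Nectin4 and C4a were not (edgeR adjusted p = 0.0750 and 0.0810). Without replicate 1 of both states, each of them has 1 library. The spread then comes only from the G1 pairs by which the genes were chosen, so no calls of the 6 genes are given. The log2 changes were 3.55 for Pou4f3, 2.34 for Neurod1, 1.33 for C4a, 1.22 for Nectin4, -0.14 for Mesp2 and -0.90 for Plekhg6.

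Per length of exon, Nectin4 and Neurod1 had the highest late G1 levels. Nectin4 at 7.86 and Neurod1 at 7.75 CPM per kilobase were not separated by their libraries (7.84 and 7.89 for Nectin4, 7.59 and 7.91 for Neurod1). Mesp2 averaged 3.37, Pou4f3 2.58, Plekhg6 2.47 and C4a 1.05 CPM per kilobase, with Pou4f3 (2.64 and 2.52) and Plekhg6 (2.6 and 2.35) overlapping. On the same scale in mitotic cells the order was Nectin4 (3.11), Neurod1 (1.88), Plekhg6 (1.82), Pou4f3 (1.00), Mesp2 (0.931) and C4a (0.636), with overlapping libraries for Neurod1 and Plekhg6 and for Pou4f3 and Mesp2.

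Relatives and partners of each gene were listed by known role, 171 genes in 6 lists of which 134 were tested. Between late and early G1 edgeR on 8 libraries called 0 of the 134 and 0 of all 19101 genes, so this 0 says nothing about the lists. At an unadjusted p under 0.05 it had 6 of the 134 and 724 of the 19101. DESeq2 called 1 of 120 list genes and 26 of 15742 genes in all. The list medians ran from -0.09 to 0.13 in log2. In the fit of the 4 G1 libraries alone, which tested 124 of the list genes, 4 were higher in late G1 and 14 lower, against 3.5% and 4.94% of all genes. The 4 were Myt1, a neural zinc finger gene (log2 2.64, SE 0.66), the adhesion gene Cadm3 (0.93, SE 0.27), Hey2, a Notch target (0.87, SE 0.27), and the Notch ligand gene Jag2 (0.33, SE 0.07). The level of Myt1 was 0.73 CPM or less in every library. The 14 included Plk1 (-0.68, SE 0.06), a mitotic kinase, Anln (-0.33, SE 0.06), an anillin of the cleavage furrow, and Id3 (-0.51, SE 0.07) and Id1 (-0.34, SE 0.08), which encode inhibitors of basic helix-loop-helix factors.

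**Figure D4:**
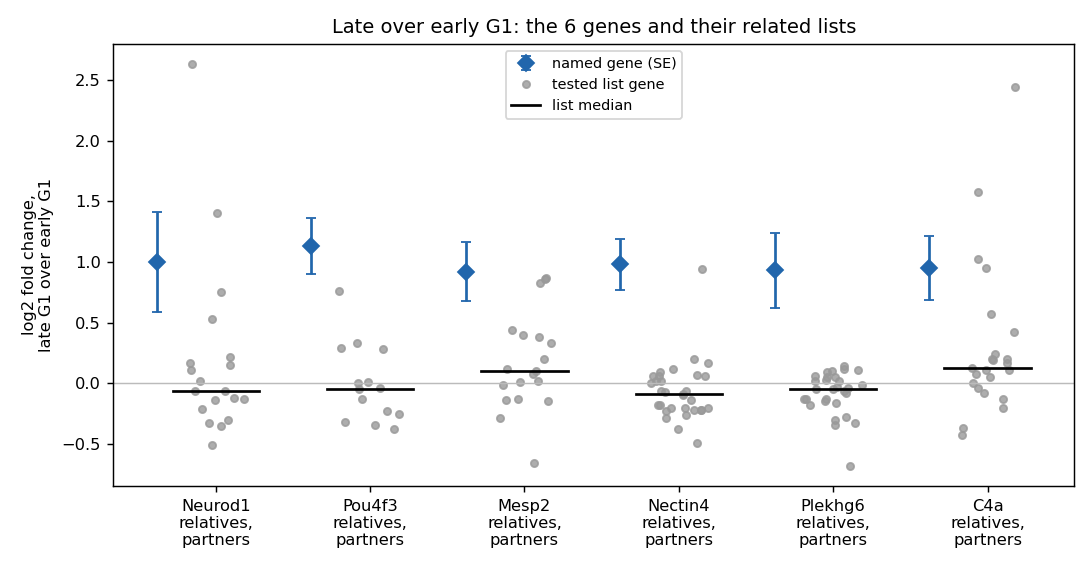
Fitted log2 fold change of late over early G1 (y axis, linear) for each of the 6 genes (diamonds, error bars SE) beside the tested genes of its list of relatives and partners (dots) and their median (line). At or above their gene lie 2 dots of the Neurod1 list and 3 of the C4a list, all under 1 CPM, and none of the other 4 lists. The 6 genes were chosen by this change, so their place above most dots describes the choice.

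Of the list genes, 5 had a late over early G1 change at least as large as that of the gene they were listed with, and each was low. Myt1 and Neurog2 in the Neurod1 list reached 0.73 and 0.61 CPM in late G1, and C1qa, C1qb and C3ar1 in the C4a list reached 0.188, 0.235 and 0.281 CPM. In the Pou4f3 list, Pou4f1, its closest paralogue with Pou4f2, averaged 8.11 ± 0.263 CPM in late G1 and 6.70 ± 0.524 CPM in early G1, and Pou4f2 7.0 ± 0.154 and 7.68 ± 0.715 CPM in the same order (SD, n = 2 each). Neurod4 had no read in any library, and Mesp1, the neighbouring paralogue of Mesp2, stayed below 0.40 CPM and was not tested.

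Between early G1 and mitotic cells, 4 of the 134 list genes rose and 6 fell (edgeR adjusted p under 0.05), against 3.21% and 1.42% of all genes. Those that rose were the Notch effector gene Hes1 (log2 1.26, SE 0.16), Id3 (1.21, SE 0.18), Pou2f3, a tuft cell factor gene (2.96, SE 0.41), and Pou4f1 (1.02, SE 0.21). Each of these 4 calls was lost without either early G1 library, and that of Pou4f1 with any 1 synchronised library left out (largest edgeR adjusted p = 0.311). Rhob, the gene of a small GTPase, fell (-0.77, SE 0.17), a call also lost with any 1 synchronised library left out (largest edgeR adjusted p = 0.356). Of 23 complement genes 5 fell, C1qa, C1qb, C1qc, C3 and C3ar1, against 2 with any 1 early G1 or mitotic library left out. Beside them 7 of 12 tested macrophage markers fell, against 1 or 2 with any such library left out. C1qb, a subunit of the recognition molecule of the classical pathway, ranged from 0 to 0.0945 CPM in early G1, against 7.60 to 7.84 CPM in mitotic cells. C4a, in the same libraries, stood at 3.97 and 2.78 CPM in early G1, against 3.71 and 4.19 CPM in mitotic cells. The part of macrophage RNA in the fall of C1q was not tested. The count of 10 over all lists was 2 without either early G1 library, 3 without either mitotic library and 39 without either asynchronous library.

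Between mitotic and asynchronous cells, 32 of the 134 rose and 34 fell, against 18.3% and 22.4% of all genes. In the Neurod1 list 7 of 19 rose, such as the eye and islet factor gene Pax6 (log2 2.44, SE 0.40) and Id1 (1.73, SE 0.30), and 2 fell, Hes1 (-1.79, SE 0.16) and Hes6 (-1.87, SE 0.24). In the Pou4f3 list 2 of 14 rose, Pou4f2 (2.47, SE 0.26) and Pou3f2 (1.98, SE 0.45), and 4 fell. In the Mesp2 list 3 of 19 rose and 7 fell, among them the Notch ligand gene Dll1 (-2.83, SE 0.44) and Lfng (-2.60, SE 0.26), whose product modifies Notch. In the Nectin4 list 8 of 31 rose, such as Jup (1.42, SE 0.15), the plakoglobin gene, and 11 fell, such as the tight junction gene Cldn7 (-3.16, SE 0.34). Without mitotic replicate 1 the Nectin4 list had 5 risers and the Mesp2 list 2, without asynchronous replicate 1 the Mesp2 list had 5, and without mitotic replicate 2 the Pou4f3 list had 1. In the Plekhg6 list 8 of 29 rose, such as Racgap1 (0.65, SE 0.10), a GTPase activator gene of the midzone, and 6 fell, such as the exchange factor gene Arhgef18 (-1.31, SE 0.21). Without mitotic replicate 1 that list had 1 riser and 4 that fell, without mitotic replicate 2 it had 3 and 4, and without asynchronous replicate 1 it had 16 and 7. In the C4a list 4 of 23 rose, among them C4b (1.93, SE 0.49) and C1qc (1.24, SE 0.37), a gene that macrophages express, and 5 fell, such as C2 (-2.77, SE 0.36), the gene of a C3 convertase subunit. Without mitotic replicate 1 that list had 0 risers and 4 that fell, and without mitotic replicate 2 it had 2 and 3. Beside them 5 of 12 tested macrophage markers rose and 0 fell, with 1 riser left without mitotic replicate 1 and 2 without mitotic replicate 2 or asynchronous replicate 1, and the part of macrophage RNA was not tested. C4b lost its call without mitotic replicate 1 (edgeR adjusted p = 0.0698), and Pou3f2 without mitotic replicate 2 (edgeR adjusted p = 0.0557).

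Genes with the most similar course were sought among 12622 tested genes, as those with the smallest root mean square difference in log2 CPM, centred on each gene's own mean, over the 8 libraries. Mesp2 had the closest match, Hic1, a zinc finger repressor gene (0.134), which stood at 4.79 and 5.39 CPM in late G1 and at 3.26 and 2.74 CPM in early G1. Ddit4l (0.165) followed. Nearest to Nectin4 were Dffb, a nuclease gene of apoptosis (0.179), Mdm2, the gene of a p53 ubiquitin ligase (0.209), and Arap2 (0.217). Nearest to C4a were Mab21l3 (0.188), Tas1r1 (0.206) and Btg2 (0.236), and nearest to Plekhg6 were Rps3a1 (0.190), Immp1l (0.199) and Atp5g1 (0.222). For Neurod1 and Pou4f3 the smallest difference was larger, 0.376 for Mex3b with Neurod1 and 0.467 for Slitrk5 with Pou4f3. The measure is not scaled for the size or noise of a course. Asynchronous Pou4f3 rests on 3 and 4 reads, and the asynchronous Neurod1 libraries differed 3.88-fold. Among themselves the 6 genes differed by 0.319 (Nectin4 and C4a) to 1.88 (Pou4f3 and Plekhg6) on this scale.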

How the data were processed

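Poly(A) RNA was sequenced as single reads of 50 bases from 8 libraries, 2 per state, per the labels' protocols. What the authors deposited is 1 table of counts per gene, raw and in whole numbers. TopHat2, SAMtools, HTSeq and mm10 are named per the submitters' processing notes; versions, annotation release and strand setting: not given in the sources used here. IDs were matched to GENCODE M21 (GRCm38), which named 54809 of 54838 (99.9%); coordinates are 1-based. Samples were grouped by their titles.

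In edgeR 4.0.16 (R 4.3.3), filterByExpr with a minimum count of 10 kept 19101 genes and TMM scaled the libraries. A robust quasi-likelihood model of all 8 libraries, with no block and 4 residual degrees of freedom, gave two-sided p-values. A call needs a p below 0.05 after Benjamini-Hochberg adjustment over every tested gene. The SE of a log2 fold change was obtained from its p and degrees of freedom. Log2 CPM used a prior count of 2. DESeq2 1.42.0 was an alternative. The fit was tested on simulated data.

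The 6 genes and the lists were chosen with earlier results of these data known. The genes named were all 6, the 3 nearest to each in course, of which 1 is not reported here (average log2 CPM at least 0, no clone name or pseudogene), up to 3 called genes of each list and direction, of which a selection is given, and the nearest paralogues; genes around the lowest late over early G1 change, the genes called in the fit of the G1 libraries alone, C3 and C3ar1 were named after their values were seen. Promoter sequences are from RefSeq. Replicate numbers were not taken as pairs, since the labels do not tie them to clones and the correlation of replicate deviations between states ran from -0.138 to 0.463.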

Additional observations from a re-analysis of the deposited data

How the results depend on the processing

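Depth gave 3 reads or more for each of the 6 genes in every library and limits Pou4f3 in asynchronous cells most. Late over early G1 changes of the 6 genes, given as description, ran from log2 0.71 to 1.22 with another scaling and without any 1 G1 library. Their sign was set by the choice of genes, so that it held is no check. For mitotic against asynchronous cells, Pou4f3 kept its call under every other setting with all 8 libraries and in the fit of those states alone. Signs turned for Mesp2 (-0.04 without mitotic replicate 1, -0.14 without replicate 1 of both states) and for Plekhg6 (0.12 without asynchronous replicate 2, against -0.88 without asynchronous replicate 1). The Mesp2 value was 0.30 without mitotic replicate 2. The cause was not tested. The count of the 6 genes called was 3, against 1 in the fit of the groups compared alone, 5 without replicate 1 of both states, and 1 to 5 without 1 library. With the replicate number as a block (replicate block) it was 4, since Neurod1 then passed (log2 1.31, edgeR adjusted p = 0.0308), as it did by DESeq2 (adjusted p = 0.00856) and with no filter. Leaving out replicate 1 of both states was chosen after seeing the data.

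Counts over all genes moved as follows. For mitotic against asynchronous cells 7767 became 3883 with the groups compared alone, 11700 without replicate 1 of both states and 4737 to 10382 without 1 library. For early G1 against mitotic cells 885 became 2362 with no filter, 2759 with the groups alone, 7918 without those replicates and 42 to 4518 without 1 library. For late against early G1 0 became 26 by DESeq2, 58 with no filter, 1493 with the groups alone, 1518 without those replicates and 0 to 25 without 1 library. For late G1 against asynchronous cells 9305 became 5096 to 11489 without 1 library. Of the list genes, of which each fit tested its own number (134 in the reported one), the 66 called for mitotic against asynchronous cells became 41 with the groups alone and 47 to 84 without 1 library. The 10 called for early G1 against mitotic cells became 16 by DESeq2, 27 with no filter, 26 with the groups alone, 66 without those replicates and 2 to 39 without 1 library. The 0 called for late against early G1 became 1 by DESeq2, 1 with no filter, 18 with the groups alone, 20 without those replicates and 0 to 1 without 1 library. The cause was not tested.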

Other observations

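Other factor genes of the neural and islet programmes in which NEUROD1 acts were present at low levels. Nkx2-2, a homeobox gene of islet cells, averaged 1.01 ± 0.771 CPM in mitotic cells, 2.12 ± 0.121 CPM in early G1, 3.06 ± 0.584 CPM in late G1 and 0.167 ± 0.123 CPM in asynchronous cells (SD, n = 2 each). Isl1, a LIM homeobox gene, averaged 1.13 ± 0.373, 1.90 ± 0.543, 2.22 ± 0.437 and 0.809 ± 0.714 CPM in the same order, and Insm1, a zinc finger gene of endocrine precursors, 0.721 ± 0.531, 1.87 ± 0.246, 1.80 ± 0.618 and 0.281 ± 0.110 CPM. Krt5, a keratin gene of basal epithelium, averaged 2.13 ± 0.566 CPM in late G1, against 1.13 ± 0.0700 CPM in early G1. It was 1 of 23 listed markers of differentiated lineages, which went the other way as a set. Their summed level was 92.2 and 84.3 CPM in early G1 and 78.6 and 77.2 CPM in late G1. The 12 tested had a median late over early G1 change of log2 -0.25, and 0 were called (edgeR on 8 libraries), as were 0 of all 19101 genes. In late G1 against asynchronous cells 10 of the 19 tested genes listed with Neurod1 rose and 3 fell, against 22.7% and 26.0% of all genes (edgeR adjusted p under 0.05), and the 13 calls were 8 to 15 with 1 library left out. The list behind this count is not confined to those programmes. It also holds Id1, Id2, Id3 and Id4, which encode inhibitors of basic helix-loop-helix factors, and Rest, Tcf3 and Hes6. Id1 averaged 33.7 CPM in late G1 and 12.9 CPM in asynchronous cells, and Rest 340 and 234 CPM, while Hes6 averaged 13.1 and 58.0 CPM. These genes were named after their values were seen.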
